A study of Homo sapiens with 12 samples.

Results

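The broad MTF2 domains were the MTF2 peaks of PHF19-depleted K562 cells that were at least 7000 bp wide. There were 1644 of them among the 18287 MTF2 peaks called in these cells, or 8.99%, and they covered 17.1 Mb, 27% of the bases under all peaks of that list. They were selected on their width, so the width and the score of the sh2 MTF2 list are given as a description. The control-cell peaks that they spanned, the genes that started inside, the RNA level of those genes and the reference sequence were not part of this rule. The rule and the gene lists were, however, chosen with earlier results of these data known, so what follows is a description.

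K562 is a cell line from a patient with chronic myeloid leukemia that carries the BCR-ABL fusion. The cells were infected with an empty shRNA vector (shCT) or with 1 of 2 shRNAs against the long isoform of PHF19 (sh1 and sh2) and selected with puromycin. ChIP-seq was made from 1 library per condition, and the lists used here hold the MTF2 peaks in shCT (12502) and sh2 (18287) and the PHF19 peaks in shCT (5621, as deposited, with no further filter). RNA-seq was made from 2 libraries for each of shCT, sh1 and sh2, and the level used here is a mean normalized count pooled over all 6 of them. The series holds no MTF2 library of sh1, so the domains rest on 1 hairpin and 1 library, and depth per library is not known from these files. Intervals given with shares cover counting error only and do not measure the spread between cultures.

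MTF2 and PHF19 are Polycomb-like proteins, accessory subunits of Polycomb repressive complex 2 (PRC2). This complex places methyl groups on lysine 27 of histone H3 through its catalytic subunit EZH2, a mark of repressed developmental genes. The Polycomb-like proteins bind DNA rich in unmethylated CpG through a winged-helix fold and read methylated lysine 36 of histone H3 through a Tudor domain, and they help the complex to settle at CpG islands. In differentiated cells, long stretches of this chromatin lie over clusters of homeobox genes and other regulators of embryonic development that the lineage does not use.

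Stretches of the reference genome from 3 of the 5 widest domains that held a transcript start of a listed developmental gene are shown first, because CpG is the sequence feature on which the domains differed along their length. For each domain the 200 bases with the most CpG outside annotated exons are given on the plus strand of GRCh37, with every CG in capitals. Not every stretch taken by this rule is printed, so the values describe these 3 alone. They held 34, 33 and 25 CpG in the order shown, with 80, 81 and 70.5% GC, and each lay under a peak of MTF2 and a peak of PHF19 in shCT. The first lay in introns of DLL1 and FAM120B (chr6:170605574-170605773), the second 174 bp from the annotated start of NTNG2 (chr9:135037171-135037370) and the third in an intron of PAX2 (chr10:102499129-102499328).
DLL1 domain: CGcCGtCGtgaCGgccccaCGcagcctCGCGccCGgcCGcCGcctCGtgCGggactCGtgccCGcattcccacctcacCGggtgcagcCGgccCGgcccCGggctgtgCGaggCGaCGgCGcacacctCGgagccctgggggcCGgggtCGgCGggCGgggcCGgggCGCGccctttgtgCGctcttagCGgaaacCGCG
NTNG2 domain: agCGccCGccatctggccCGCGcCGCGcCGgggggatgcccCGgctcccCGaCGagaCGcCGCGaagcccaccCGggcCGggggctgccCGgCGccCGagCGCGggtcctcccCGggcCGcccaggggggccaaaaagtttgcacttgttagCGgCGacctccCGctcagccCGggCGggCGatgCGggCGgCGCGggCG
PAX2 domain: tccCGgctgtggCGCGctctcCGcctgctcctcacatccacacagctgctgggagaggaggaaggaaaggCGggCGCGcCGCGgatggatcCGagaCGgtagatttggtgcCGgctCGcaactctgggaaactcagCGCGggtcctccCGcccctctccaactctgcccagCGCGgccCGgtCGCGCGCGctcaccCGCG

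A further 200 bases are given from the middle of the longest exon-free stretch of the NTNG2 domain that carried an MTF2 peak in sh2 and neither a MTF2 nor a PHF19 peak in shCT. This choice was made after the values were seen. The stretch was 4358 bp long, and its middle lay in an intron (chr9:135045189-135045388). It held 7 CpG in the 200 bases. The stretch printed above for the same domain was chosen for its CpG, so the difference between the pair was fixed by the choice and is not a comparison of bases with and without a shCT peak. CpG density over all such bases is given further on.
NTNG2 domain, no shCT peak: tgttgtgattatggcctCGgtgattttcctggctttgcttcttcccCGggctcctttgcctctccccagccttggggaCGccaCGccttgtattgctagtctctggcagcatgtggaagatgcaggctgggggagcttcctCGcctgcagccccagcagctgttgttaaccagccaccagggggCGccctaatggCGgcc

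The domains had a median width of 9044 bp, with quartiles at 7888 and 11623 bp, and the widest reached 35593 bp. The median over all sh2 MTF2 peaks was 2598 bp. Peaks of at least 7000 bp made up 2.92% of the shCT MTF2 list, 365 peaks, and 1.3% of the shCT PHF19 list, 73 peaks. The threshold cut through a continuous distribution. Just inside it lay peaks of 7000 bp in the VWA5B1 gene, 7003 bp in PPP2R2C and 7004 bp on chromosome 7 outside coding genes, with 1, 1 and 0 shCT MTF2 peaks. Just outside lay peaks of 6998 bp in RIMBP2, 6995 bp at CHRNB2, which encodes a nicotinic receptor subunit, and 6990 bp at TSPAN11, a tetraspanin, with 2, 1 and 0 shCT MTF2 peaks.

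**Figure D1:**
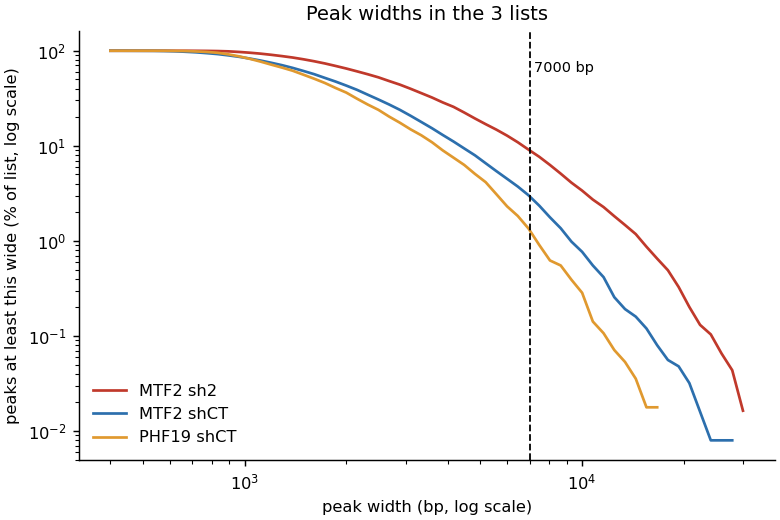
Share of peaks in each list (vertical, percent, log scale) that were at least as wide as the value on the horizontal axis (bp, log scale), for MTF2 in sh2 and shCT and PHF19 in shCT. At the dashed line of 7000 bp the curves stand at 8.99%, 2.92% and 1.3%.

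The score rose with the width class. The median score that the peak caller gave the domains was 452.7, against 237.3 for sh2 MTF2 peaks of 3500 bp to under 7000 bp and 83.9 for those under 3500 bp. Within the domains, whose range of width was cut by the threshold, the Spearman coefficient of width and score was -0.000972 (1644 domains of 1 library). The domain with the highest score, 3208.7, was 13312 bp wide and held the start of EFNA2, an ephrin ligand of axon guidance. Other domains, among them those at UNCX, EMX1 and LHX1, were tied at 3100, also the highest score of peaks under 3500 bp. The top scores therefore do not rank these domains by strength. The widest domain, at PTPRN2, had a score of 67.8 and the rank 14138 of 18287.

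Most domains were places where MTF2 was already called in the control cells. A shCT MTF2 peak was met by 1495 domains, or 90.9% (exact binomial 95% interval 89.4 to 92.3%). For peaks of 3500 bp to under 7000 bp the share was 69% (67.7 to 70.4%), and for those under 3500 bp it was 32.8% (32 to 33.6%). A wide region meets more peaks by its size alone, so the midpoints were compared too. The midpoint lay inside a shCT MTF2 peak in 68.2% of domains (65.9 to 70.5%), 54.3% of the middle class (52.9 to 55.8%) and 27.5% of the narrow class (26.8 to 28.4%). Conversely, 2734 of the 12502 shCT MTF2 peaks, 21.9%, lay in a domain.

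Domains spanned from 0 to 7 shCT MTF2 peaks each. There were 149 domains with none, 679 with 1, 512 with 2, 208 with 3, 69 with 4, 23 with 5, 2 with 6 and 2 with 7. Thus 816 domains, 49.6% (47.2 to 52.1%), spanned at least 2 control peaks, against 13.4% of the middle class and 1.48% of the narrow class. Per 10 kb of sequence the numbers were alike, with 1.61 shCT MTF2 peaks in domains, 1.75 in the middle class and 1.7 in the narrow class. The gaps between shCT peaks of the same domain were short. Their median was 375 bp, and 881 of the 1249 gaps, 70.5%, were at most 1000 bp. When shCT MTF2 peaks separated by at most 1000 bp were joined, 20.2% of domains (18.3 to 22.2%) still spanned at least 2.

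**Figure D2:**
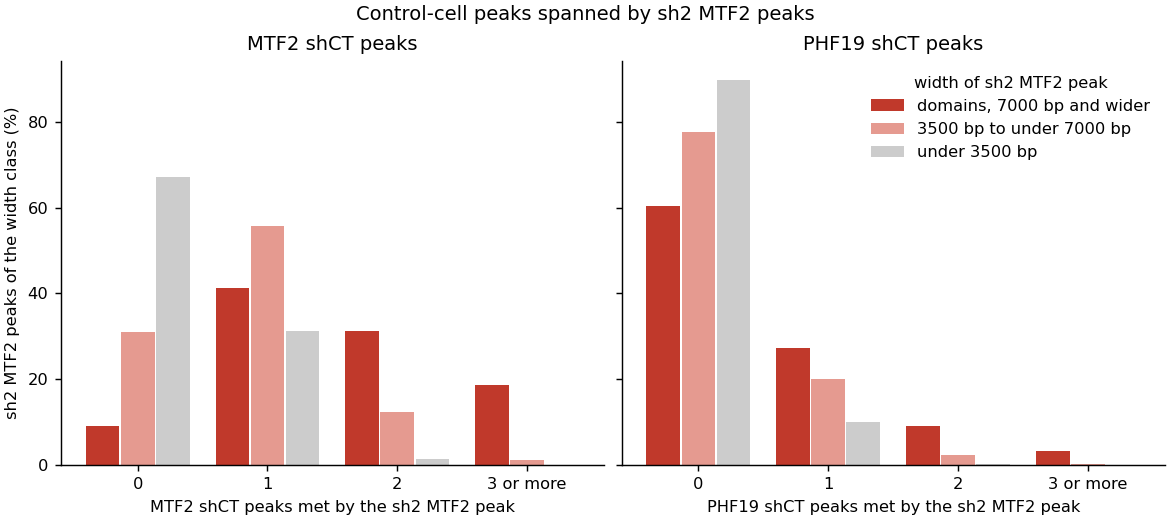
Share of sh2 MTF2 peaks of each width class (vertical, percent) that met 0, 1, 2 or at least 3 peaks (horizontal) of the shCT MTF2 list, left, and of the shCT PHF19 list, right; bars are 1 library each, with no error bars. No shCT MTF2 peak was met by 9.06% of domains, 31% of the middle class and 67.2% of the narrow class.

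PHF19 peaks of the control cells were less frequent in the domains than MTF2 peaks. The same held over all sh2 MTF2 peaks, of which 15.9% met a PHF19 peak and 46.9% a MTF2 peak of shCT. The PHF19 list is shorter, and its heading names another control, so this difference is not particular to the domains. A shCT PHF19 peak was met by 653 domains, 39.7% (37.3 to 42.1%), against 22.3% (21.1 to 23.6%) of the middle class and 10.3% (9.76 to 10.8%) of the narrow class. The number per domain ran from 0 to 6, with 991 domains at 0, 449 at 1, 150 at 2 and 54 at 3 or more. At the midpoint the shares were 21%, 15% and 8.5% from the widest to the narrowest class. Per 10 kb there were 0.543, 0.514 and 0.523 PHF19 peaks. Of the 5621 PHF19 peaks, 924, or 16.4%, lay in a domain.

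Taking both factors together, 631 domains, 38.4%, held peaks of MTF2 and of PHF19 in shCT. Another 864, 52.6%, held MTF2 alone, 22 held PHF19 alone, and 127, 7.73% (6.48 to 9.12%), held neither. The last group had a median width of 8190 bp and a median score of 177, against 9848 bp and 646.1 for domains with both. The reference sequence also differed between these groups. A CpG island lay in 56.6% of domains with both (52.6 to 60.5%), 37% of those with MTF2 alone (33.8 to 40.4%) and 11% of those with neither (6.16 to 17.8%). A coding transcript start lay in 47.5% (43.6 to 51.5%), 29.4% (26.4 to 32.6%) and 23.6% (16.5 to 32%) of them.

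Wider domains held more of both. Between 7000 bp and 10000 bp there were 1025 domains with a mean of 1.38 shCT MTF2 peaks and a PHF19 peak in 33.6% (30.7 to 36.5%). From 10000 bp to 15000 bp there were 435, with a mean of 1.9 and a PHF19 peak in 43.7% (39 to 48.5%). The 184 domains of at least 15000 bp had a mean of 2.75 and a PHF19 peak in 64.7% (57.3 to 71.6%). Per 10 kb the MTF2 number did not grow, with 1.68, 1.59 and 1.46 in the same order, and that of PHF19 was 0.522, 0.519 and 0.629. The median share of domain bases under shCT MTF2 peaks was 55.9%, 65% and 74.9%.

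Over all domains, 58.8% of the bases lay under a shCT MTF2 peak and 17.3% under a PHF19 peak, against 41.4% and 11.7% in the middle class and 23.8% and 7.54% in the narrow class. The median domain had 60.2% of its bases under shCT MTF2 peaks, with quartiles at 36.9 and 79.8%. A shCT MTF2 peak that itself reached 7000 bp was met by 314 domains, 19.1%. Seen from the control cells, 322 of the 365 shCT MTF2 peaks of that width lay in a domain, 3 met narrower sh2 peaks only, and 40 met no sh2 MTF2 peak. For PHF19, 54 of 73 wide peaks lay in a domain and 12 met no sh2 MTF2 peak.

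CpG density followed the control peaks along the domains. In the 1495 domains with a shCT MTF2 peak, the bases under those peaks (63.8% of the total) held 29.3 CpG per kb. The gaps between shCT peaks (6.89%) held 23.5 per kb, the ends outside the outermost shCT peaks (29.3%) 20.6 per kb, and the flanks beyond the domains, of the same total length, 20.5 per kb. Other sh2 MTF2 peaks and neighbouring domains were not taken out of the flanks, so these are not a sample of unbound sequence. The whole genome, chromosomes 1 to 22 and X, held 9.87 per kb. Within single domains, CpG was denser under the shCT peaks than in the rest of the domain in 1099 of 1448 (75.9%, 73.6 to 78.1%). PHF19 peaks lay along the same gradient, over 25.1% of the bases under shCT MTF2 peaks, 8.01% of the gaps, 5.86% of the ends and 5.96% of the flanks.

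The domains as a whole were no CpG islands. An island, here at least 500 bp with a GC content of at least 50% and an observed to expected CpG ratio of at least 0.6, lay in 695 domains, 42.3% (39.9 to 44.7%). It lay in 27.3% of the middle class and 18% of the narrow class, whose single peaks offer less sequence. Peaks with an island numbered 695, 1228 and 2188 over 17.1, 21.6 and 24.5 Mb, from the widest class to the narrowest. Per length, domains thus had the fewest. The median observed to expected ratio over the whole region was 0.327 in domains, 0.311 in the middle class and 0.314 in the narrow class. The median GC content was 53.6%, 52.2% and 50.2%. The ratio was not free of width. Among the domains its median was 0.321 between 7000 bp and 10000 bp, 0.334 up to 15000 bp and 0.348 from there on.

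Per peak, domains held a coding start more often than narrower sh2 MTF2 peaks did, as a wider region would by its size alone. Per length the order was reversed. Peaks with a coding start numbered 590, 1169 and 1861 over 17.1, 21.6 and 24.5 Mb, from the widest class to the narrowest. A start of a protein-coding transcript lay inside 590 domains, 35.9% (33.6 to 38.3%), 542 (33%) lay in the body of a coding gene without a start, and 512 (31.1%) outside coding genes. Over all sh2 MTF2 peaks the shares were 19.8%, 38.5% and 41.7% in the same order. The 3 places differed in sequence and in PHF19. Domains with a coding start had a median CpG ratio of 0.37, a CpG island in 66.1% (62.1 to 69.9%) and a PHF19 peak in 51.9% (47.7 to 56%). Those inside gene bodies had 0.308, 28.8% (25 to 32.8%) and 28.4% (24.7 to 32.4%), and those outside genes 0.317, 29.1% (25.2 to 33.2%) and 37.7% (33.5 to 42.1%). The share with a shCT MTF2 peak was 93.9%, 88.9% and 89.6% in the same order.

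Domains were uneven along and among chromosomes. Within 5 Mb of a chromosome end lay 663 of them, 40.3% (37.9 to 42.7%), against 28.1% of the middle class and 23.6% of the narrow class. They also lay in rows, with 580 of 1621 neighbouring pairs (35.8%) at most 20 kb apart and 128 pairs (7.9%) at most 1000 bp apart. The spacing of narrower sh2 MTF2 peaks was not measured, so this is not shown to be particular to the domains. Chromosome 21 held 84 domains among 383 sh2 MTF2 peaks (21.9%), the highest share, followed by chromosome 7 with 155 of 1059 (14.6%) and chromosome 1 with 294 of 2075 (14.2%). The X chromosome had 3 of 163 (1.84%) and chromosome 14 had 9 of 431 (2.09%). Peak widths in the control library were ordered similarly, with median shCT MTF2 widths of 2447 bp on chromosome 21, 2357 bp on 7 and 2226 bp on 1, and 1071 bp on X and 1153 bp on 14. Copy number was not measured here.

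Some long genes carried many domains. These genes were singled out after their values were seen. PTPRN2, which encodes a receptor-type tyrosine phosphatase of secretory granules, held 28 domains with 388018 bp in all, 46 shCT MTF2 peaks and 14 PHF19 peaks. CAMTA1, a transcriptional activator gene, held 19 domains, and PRDM16, a zinc finger regulator, 12. CDH4, the gene of R-cadherin, had 11, and RPS6KA2, a kinase, and RBFOX3, a neuronal splicing factor, had 10 each. Their RNA differed widely. The mean normalized count was 882.2 for CAMTA1 (56.3 per kb of exon) and 0.581 for PRDM16 (0.0595 per kb), and that of PTPRN2 was 2.89 (0.594 per kb).

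The widest domain (chr7:157357125-157392717, 35593 bp) lay in PTPRN2, over the start of MIR153-2, a microRNA gene hosted by it. It spanned 4 shCT MTF2 peaks, which covered 93.5% of it, and 3 PHF19 peaks. The second (chr21:44766803-44797319, 30517 bp) lay at LINC01679, a long non-coding RNA gene, with 4 shCT MTF2 peaks over 75.7% of it. The third (chr1:6523685-6554071, 30387 bp) held starts of PLEKHG5, a guanine nucleotide exchange factor, and TNFRSF25, a death receptor, with 4 MTF2 and 3 PHF19 peaks of shCT.

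The fourth domain (chr6:170579922-170609104, 29183 bp) was broad in the control cells as well. It held starts of DLL1, a ligand of Notch receptors, and FAM120B, a coactivator of nuclear receptors, and 1 shCT MTF2 peak of 28405 bp, the widest of that list, covered 97.3% of it. The LHX2 domain (chr9:126757695-126785628, 27934 bp), at the gene of a LIM homeobox factor, spanned 5 shCT MTF2 peaks over 90.7% of it. The widest of these were 8659 and 7757 bp, so this region held broad peaks in the control cells too. It had 6 PHF19 peaks, the most of any domain, over 68.3%. The NTNG2 domain (chr9:135020971-135047467, 26497 bp), at the gene of netrin-G2, had 4 shCT MTF2 peaks over 53.9% of it. The domain at CNPY1 (chr7:155317529-155345722, 28194 bp), named for a regulator of FGF signaling, had a shCT MTF2 peak over only 10.6% of it and 2 PHF19 peaks over 23.6%. Its score, 54.4, ranked 17069 of 18287. The other 3 of the 10 widest lay in MORN1 (28968 bp, 6 shCT MTF2 peaks), PRDM16 (28662 bp, 3 peaks) and PTPRN2 (27680 bp, 5 peaks) without a listed start.

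The most shCT MTF2 peaks, 7, were spanned by a domain in SARDH, the gene of a mitochondrial sarcosine dehydrogenase (chr9:136540710-136560195, 19486 bp), and by 1 at MCF2L, a guanine nucleotide exchange factor gene (chr13:113627378-113642897, 15520 bp). The first had no PHF19 peak and the second had 1. At ANO1, a calcium-activated chloride channel gene, 6 shCT MTF2 peaks covered 58.1% of a domain of 17364 bp.

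The 5 widest domains with neither factor in shCT lay at QRFP, a neuropeptide gene (20855 bp), over parts of CNPY1 and of EN2, an engrailed homeobox gene (19619 bp), in RIMBP2, a synaptic gene (15310 bp), at SYT15, a synaptotagmin gene (15155 bp), and in CAMTA1 (13429 bp). SYT15 has a near-identical copy, SYT15B, which was also annotated in that domain, so its reads are uncertain. The scores of the 5 domains ran from 78.7 to 407.1. None of the bases of these domains lay under a peak of either shCT list.

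Genes with a transcript start inside a domain numbered 525 of the 20090 protein-coding genes, a background of 2.61%. Counting only the outermost annotated start of each gene, the number was 343. Homeobox genes started in domains more often than this background. Of the 39 HOX cluster genes, which set position along the body axis, 18 started in a domain (46.2%, 30.1 to 62.8%). Several of these shared a domain, so this interval, which counts genes as independent, is too narrow. Of 127 homeobox factors outside the clusters, 30 started in a domain (23.6%, 16.5 to 32%). Of the other families of transcription factors, the share was 12 of 59 for bHLH factors (20.3%, 11 to 32.8%), 7 of 35 for developmental zinc finger factors (20%, 8.44 to 36.9%), 3 of 17 for T-box factors (17.6%, 3.8 to 43.4%), 6 of 44 for forkhead factors (13.6%, 5.17 to 27.4%) and 2 of 19 for SOX factors (10.5%, 1.3 to 33.1%). Except for the SOX factors, the lower end of each of these intervals was above the background. The lists were chosen with earlier results of these data known, so the intervals are a description. Starts of these genes were not confined to domains. Over all sh2 MTF2 peaks, domains included, the share ran from 26.3% of SOX factors to 50.4% of homeobox factors outside the clusters and 59% of HOX genes. Of 19030 coding genes with a level, 16295 started in no sh2 MTF2 peak.

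Among signaling genes, 7 of 63 Wnt ligands, receptors and modulators started in a domain (11.1%, 4.59 to 21.6%), 5 of 42 of the FGF, hedgehog and Notch list (11.9%, 3.98 to 25.6%) and 3 of 45 BMP and TGF-beta ligands and antagonists (6.67%, 1.4 to 18.3%). Axon guidance ligands and receptors had 10 of 70 (14.3%, 7.07 to 24.7%) and voltage-gated ion channels 11 of 59 (18.6%, 9.69 to 30.9%). Of these lists, the interval of the BMP and TGF-beta genes included the background. Most members with a start in a sh2 MTF2 peak had it in a narrower peak. Over all sh2 MTF2 peaks, domains included, the share ran from 35.6% of the BMP and TGF-beta list to 55.6% of the Wnt list. The remaining lists had 1 member in a domain or none. There was 1 of 49 erythroid genes (2.04%, 0.0517 to 10.9%), 1 of 22 megakaryocyte and platelet genes (4.55%, 0.115 to 22.8%), 0 of 35 subunits of PRC2 and PRC1 (upper limit 10%), 0 of 8 CDK inhibitors (36.9%) and 0 of 84 cytosolic ribosomal proteins (4.3%). The background lay within each of these intervals. Olfactory receptors, used mainly by sensory neurons of the nose, had 0 of 399, with an upper limit of 0.92%, below the background. This limit, too, counts genes as independent and is too low where neighbouring genes share a region.

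**Figure D3:**
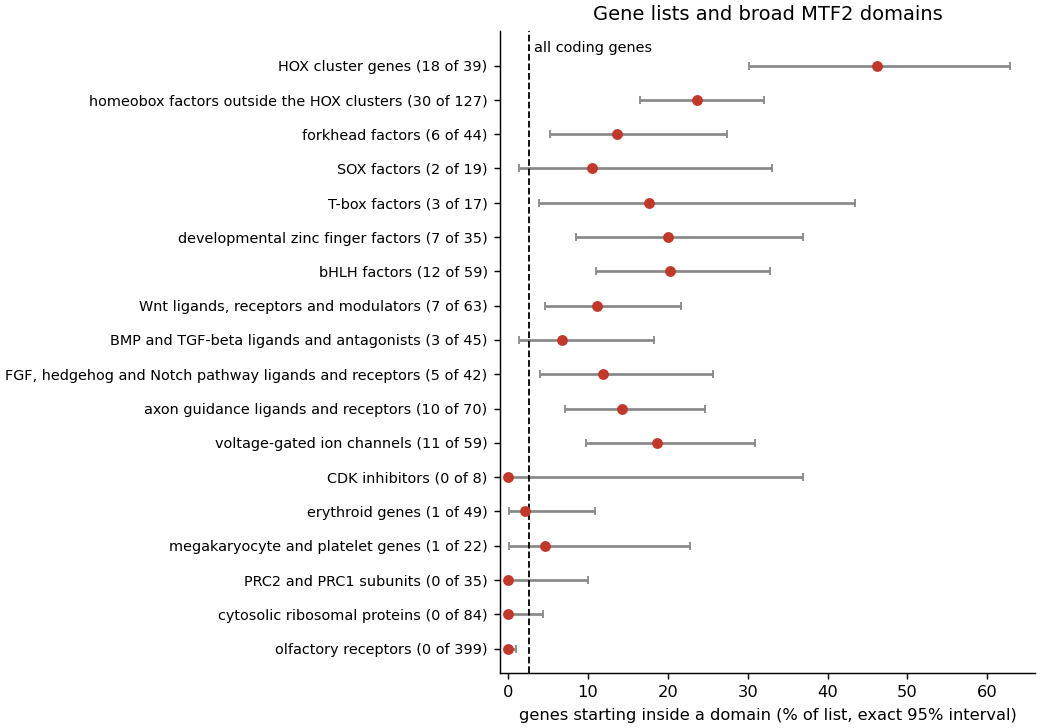
Share of the genes of each list that had a transcript start inside a domain (horizontal, percent of the list, points with exact binomial 95% intervals for counting error), with members and list size beside each name. The dashed line is the share over all coding genes, 2.61%, and HOX cluster genes stand highest at 46.2%. The lists were chosen with earlier results of these data known.

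The HOX clusters were covered unequally. The HOXD cluster (chromosome 2) had 6 domains over 77.8% of its 98.2 kb, with 8 of 9 genes starting in them. Of the same 98.2 kb, 63.5% lay under shCT MTF2 peaks and 42.8% under PHF19 peaks. HOXD3 and HOXD4 shared a domain of 21301 bp (chr2:177010674-177031974) with 4 shCT MTF2 and 3 PHF19 peaks, and HOXD9 and HOXD10 shared 1 of 18959 bp (chr2:176973249-176992207) with 1 and 3. The next domain, at HOXD8, began within 1000 bp of the end of the latter, so the caller divided a nearly continuous region.

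The HOXA cluster (chromosome 7, 107.1 kb) differed most between the MTF2 lists. All sh2 MTF2 peaks covered 73.3% of it and the 4 domains 38.1%, whereas shCT MTF2 peaks covered 11% and PHF19 peaks 2.34%. Its domain at HOXA3, HOXA5 and HOXA6 (11605 bp), singled out after its values were seen, met no shCT peak of either factor. In the HOXB cluster (chromosome 17, 200.2 kb), 1 domain lay at HOXB13 and sh2 MTF2 peaks covered 11.3%. The HOXC cluster (chromosome 12, 117.2 kb) had 2 domains over 21.6%. The level of the genes differed between the clusters as well. In HOXD and HOXA, 8 of 9 and 10 of 11 genes had a mean normalized count under 10, against 2 of 10 in HOXB, where the highest reached 5043.8, and 3 of 9 in HOXC.

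Outside the clusters, the widest homeobox domains were those of LHX2, of PAX2, a kidney and ear regulator (26127 bp, 3 MTF2 and 4 PHF19 peaks of shCT), PAX7, a regulator of muscle precursors (22283 bp, 2 and 1), and EVX1, an even-skipped homologue beside the HOXA cluster (19565 bp, 4 and 1). Their mean normalized counts were 0.128, 0, 0.487 and 0. Of the 30 homeobox factors, 27 had a mean normalized count under 10, and the median level was 0 per kb. Over the whole list, in domains or not, 87 of 127 were under 10, and the median was 0.168 per kb.

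Among bHLH genes the widest domain was that of SIM2, a regulator on chromosome 21 (21837 bp, 5 MTF2 and 2 PHF19 peaks), followed by ASCL5, NEUROD2 and OLIG2, factors of neural and other lineages, with 15463, 15425 and 15090 bp. NEUROD2 and OLIG2 were listed at 0. Forkhead genes included FOXF2, a mesenchymal factor, whose domain of 21244 bp had 0 shCT MTF2 and 2 PHF19 peaks, FOXE3, a lens factor (13347 bp), FOXD1 (8634 bp) and FOXN4 (8493 bp). GATA4 and GATA6, factors of heart and endoderm, had domains of 17464 and 10675 bp. The first spanned 3 shCT MTF2 peaks and the second 0, and both had 1 PHF19 peak. GLIS1 and GLI2, zinc finger genes related to hedgehog effectors, had domains of 14121 and 11979 bp. A mean normalized count under 10 was found for 11 of the 12 bHLH, 5 of the 6 forkhead and 5 of the 7 zinc finger genes in domains. Over the whole lists it was 41 of 59, 20 of 44 and 20 of 35. The level of FOXD1 was 21.8 (7.6 per kb) and that of GATA6 54.5 (14.3 per kb).

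TBX5, a factor of heart and forelimb, had a domain of 13910 bp with 3 shCT MTF2 peaks, and TBX15 and TBX3 had 9501 and 8471 bp. The level of TBX3, a repressor active in limb and breast development, was 85.2 (14.3 per kb), higher than that of TBX15, 12.6 (2.89 per kb), and TBX5 was listed at 0. Of the SOX genes, SOX8 had a domain of 12277 bp that lay under a shCT MTF2 peak for 99.7% of its length, and SOX14 had 1 of 8897 bp with 3 shCT MTF2 peaks over 31.2%.

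In the Wnt list, NKD2, an inhibitor of the pathway, had the widest domain (23069 bp, 90.4% under 1 shCT MTF2 peak, 3 PHF19 peaks). RSPO1, a secreted enhancer of Wnt signaling, followed with 17197 bp and WNT4, a ligand, with 16603 bp and 2 shCT MTF2 peaks over 82.1%. WNT3A, another ligand, had 14643 bp with 3 shCT MTF2 peaks over 53.3% and no PHF19 peak. The level of RSPO1 was 629.6 (205.9 per kb), whereas NKD2 had 12.3 (4.24 per kb), WNT4 3.22 (0.692 per kb) and WNT3A was listed at 0. Of the FGF, hedgehog and Notch list, SHH, the hedgehog ligand of limb and neural tube, had a domain of 10925 bp with 2 shCT MTF2 peaks over 98.2%, SMO, the transducer of hedgehog signals, 9737 bp with 36% covered, and FGF4, a growth factor of the early embryo, 8960 bp. In the BMP and TGF-beta list, INHBB, an activin subunit, BMP6 and NODAL had domains of 9029, 8990 and 7429 bp.

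Axon guidance genes included NTNG2, UNC5A, a netrin receptor (18056 bp), EFNA2, whose shCT MTF2 peak covered 98.1% of the domain and whose PHF19 peak covered 99.5%, and PLXNA2, a semaphorin receptor (12559 bp). Of the 10 in domains, 6 had a mean normalized count under 10, as did 29 of the 70 on the list. The level of PLXNA2 was 63.7 (4.6 per kb). Among ion channels were CACNA1H, a T-type calcium channel (21663 bp, 91% under 1 shCT MTF2 peak), KCNG4 (11716 bp, 13.6%) and KCNF1 (10666 bp, 43%). All 11 channel genes in domains had a mean normalized count under 10, as did 39 of the 59 on the list, in domains or not.

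Some genes of interest to the study were looked up singly, with those of the Polycomb proteins themselves. This is not a full list of its MTF2 target genes. WNT4 and PDGFRA, a growth factor receptor listed at 0, started in domains, the latter of 8403 bp with 2 shCT MTF2 peaks. ATF3, a stress-induced factor (7634 bp), and NODAL started there only by annotated transcripts shorter than the longest. CDKN1A, the cell cycle inhibitor p21, lay in a sh2 MTF2 peak of 4098 bp, PLCG2, a phospholipase, in 1 of 4327 bp, also by a shorter transcript, and NOTUM, a Wnt inhibitor, in 1 of 3684 bp, all below the threshold. FOXC1, MTF2, PHF19 and EZH2 had no start in a sh2 MTF2 peak. The paper uses a wider rule, which takes peaks from upstream of the start to the end of the transcript. It shows FOXC1 among its MTF2 profiles, so the lack of a start in a peak is not a lack of binding by that rule. The levels were 280.6 for CDKN1A (93.7 per kb), 385.2 for ATF3 (96.3 per kb) and 0.344 for NODAL (0.165 per kb).

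RNA of genes that started in domains was scarce. Of 625 such genes with a level, 483 (77.3%, 73.8 to 80.5%) had a mean normalized count under 10, beside a background of 42.3% of all 24294 placed genes. The share was 64.6% (61.5 to 67.6%) for genes starting in peaks of 3500 bp to under 7000 bp, 52.5% (50 to 55%) in narrower peaks and 39.5% (38.8 to 40.1%) in no sh2 MTF2 peak. The median level per kb of exon was 0.165, 0.552, 1.45 and 22.3 in that order. In the domains 174 genes (27.8%) were listed at 0, and 10 (1.6%) reached 1000, against 28.9% of genes in no peak. Of protein-coding genes alone, 74.7% (70.7 to 78.4%) of 514 were under 10, against 29.6% of 16295 in no peak.

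**Figure D4:**
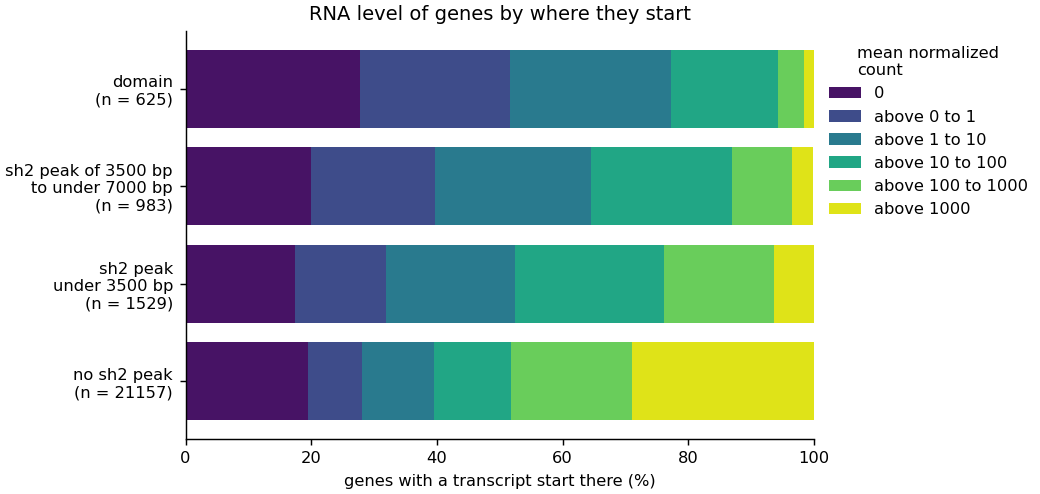
Share of genes (horizontal, percent) at each mean normalized count over the 6 RNA-seq libraries (colors), for genes with a transcript start in a domain, in sh2 MTF2 peaks of the narrower classes and in none. Genes above 1000 make up 1.6% of the 625 genes in domains and 28.9% of the 21157 in no peak.

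Within the domains the level was lower where no PHF19 peak lay, and the median level differed less with the number of shCT MTF2 peaks. With a PHF19 peak in the domain, 72.8% (67.8 to 77.4%) of 353 genes were under 10, with a median of 0.239 per kb, and without one 83.1% (78.1 to 87.3%) of 272, with a median of 0.0919 per kb. These intervals did not overlap, but they count genes of the same domain as independent. Coding and non-coding genes were pooled here, and domains with and without a PHF19 peak differed in coding starts, as given above. Whether the difference holds for coding genes alone was not tested. The share under 10 was 76.1% (71.4 to 80.4%) with at least 2 shCT MTF2 peaks, 77.4% (71.3 to 82.7%) with 1 and 88.9% (73.9 to 96.9%) with none, the last over 36 genes. The medians of these 3 groups were 0.167, 0.168 and 0.161 per kb, and the intervals of the shares overlapped. In domains of at least 15000 bp it was 84.7% (77 to 90.7%), and in those under 10000 bp 75.4% (70.2 to 80.1%), with medians of 0.0821 and 0.204 per kb. Coding genes whose body met a domain without a start inside, 186 genes, had 63.4% under 10 (56.1 to 70.4%) and a median of 0.469 per kb. Coding genes that met no domain had 32.2% and a median of 46.7 per kb.

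The 10 genes with the highest level per kb among those starting in domains mostly had further annotated starts outside the domain. ANK1, which encodes ankyrin of the red cell membrane, led with a mean normalized count of 7219.9 (656.6 per kb), and its domain (8532 bp) held the starts of 2 of its 16 annotated transcripts. GSE1, a coiled-coil protein gene, had 7136.5 (533.5 per kb) with 2 of 16 starts inside, IQSEC1, an exchange factor for ARF GTPases, 3922.3 (380.6 per kb) with 1 of 10, and PPIE, a cyclophilin of the spliceosome, 3704 (333 per kb) with 1 of 15. LRRFIP1, a nucleic acid sensor, had 2419.4 (181.1 per kb) with 2 of 17, and VGLL4, a cofactor of TEAD factors, 912.1 (126.7 per kb) with 7 of 18. KIF1A, a kinesin of neurons, had 4772.5 (266.9 per kb) with 23 of 52 starts inside and FAM120B 1593.8 (264.4 per kb) with 2 of 5. In TUBB2B, a beta tubulin, and RSPO1 every annotated start, 5 of 5 and 4 of 4, lay inside, at levels of 1047.5 (251.8 per kb) and 629.6 (205.9 per kb). The table gives 1 value per gene, so which start the RNA came from cannot be told apart. FLI1, a megakaryocyte factor and the only gene of its list in a domain (7734 bp, no shCT peak of either factor), had a level of 0.644 (0.0802 per kb).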

How the data were processed

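The authors mapped the ChIP-seq reads with Bowtie to hg19 and dm3 (a fly spike-in), keeping reads with 1 location, and called peaks with MACS at a shift size of 100 bp. The lists were deposited for each library as positions with a score for each peak and no tags, so the depth is unknown. For PHF19 the study took as positive only peaks above a minimum of tags. The deposited PHF19 list is longer than that set and was used whole, since without tags that filter could not be applied. Their headings name the IgG library as control of both MTF2 lists and a hairpin sample as that of the PHF19 list. RNA-seq reads were mapped to hg19 with TopHat, and the authors deposited a DESeq2 table of both hairpins against shCT. From it only the mean normalized count, a score here, was used. Its other columns (fold changes, standard errors, statistics, p-values) hold the authors' own comparison and were not used, so levels are pooled over all groups without an error, and the depletion of PHF19 was not checked here. The sources used here give no versions of these tools and do not say whether the spike-in entered the peak calls.

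Overlaps of at least 1 bp and exact binomial 95% intervals were computed with pandas 2.3.3 and SciPy 1.17.1 (Python 3.11.15), with interval code tested on simulated data. Positions count from 1 on GRCh37 (hg19), and no peak passed a chromosome end. GENCODE 44, lifted to GRCh37, placed 23257 of 27348 genes of the table by symbol and 1037 by an older RefSeq symbol. CpG islands were joined windows of 200 bp taken each 50 bp. Reference sequence was read with pysam 0.24.0, leaving out chromosome 8 for printing, and figures were drawn with matplotlib 3.10.9.

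Named genes were those of the 10 widest domains, the 5 with the most shCT MTF2 peaks, the 5 widest without a shCT peak, the peaks beside the threshold, the 10 of the highest level per kb, up to 4 of each list by domain width, and genes of the study. The domains, lists and rule were chosen with earlier results of these data known. No test was run, since there was 1 ChIP library per condition. Alternatives covered width, overlap, score, joined peaks, gene start and minimum level. Some sequences and 1 gene that these rules take are not reported here. Peaks of PHF19 in sh1 and sh2 were not analysed here.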

Additional observations from a re-analysis of the deposited data

How the results depend on the processing

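No paired analysis was possible because no result came from a test between groups with replicate libraries. Of 35 alternatives over 9 results, 9 stayed within the counting interval of the value given or within 1.5 times the count, and 26 did not. With a width of at least 5000 bp there were 3295 domains, of which 85.4% met a shCT MTF2 peak, 34.9% at least 2 and 32.7% a PHF19 peak, with a median of 55.1% of bases under shCT MTF2 peaks, 896 coding genes, a median level of 0.256 per kb and a median CpG ratio of 0.321. With at least 10000 bp the same values were 619 domains, 95.5%, 69%, 49.9%, 68.9%, 251 genes and a ratio of 0.339. Peaks at or above the median score of their shCT list gave 79.2% with a MTF2 peak, 29.2% with at least 2, 29.3% with a PHF19 peak and a median of 49.9% of bases. Joining shCT MTF2 peaks across gaps of up to 1000 bp gave 20.2% with at least 2. Counting only the gene start left 343 coding genes. The median level was 0.605 per kb over genes above 0, and 0.873 as a mean normalized count without length. Under a minimum of 1 or 100 in place of 10, 51.7% or 94.2% of genes in domains fell below it. The central 1000 bp had a median CpG ratio of 0.316. With 1 library per condition, the wider peaks of sh2 cannot be told apart from a difference in depth between libraries.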
